A study of Mus musculus with 10 samples.

Results

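The genes described here are 34 genes of DNA replication and mitosis, 13 of replication and 21 of mitosis, in whole livers of male Balb/c mice. The CCl4 group was 5 livers of mice given carbon tetrachloride, a liver toxin whose repeated injection leads to fibrosis, for 6 weeks, and the oil group was 5 livers of mice given oil over the same 6 weeks. All mice were obtained at 8 weeks of age and acclimatized for 1 week, and the labels name no transgene. The genes were chosen by name, with no measured value in the rule, and each was represented by its brightest probe set (the probes of 1 transcript cluster) among those with that symbol alone. Values were found for 30 of the 34 genes, 11 of replication and 19 of mitosis, among 14860 genes with a value on these Affymetrix arrays. Pcna, Rrm2 and Ccnb1 had no probe set of their own symbol, and the probe set of Foxm1 was shared with another symbol, so these 4 genes have no value here.

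A dividing cell passes through growth (G1), DNA synthesis (S), a further gap (G2) and mitosis (M). Cyclins bind cyclin-dependent kinases (CDKs) and drive each step, and CDK inhibitors hold them back. Replication genes are switched on toward S phase largely by E2F factors, which the retinoblastoma proteins restrain, whereas mitosis genes come on later through the MuvB complex with MYBL2 and FOXM1. Most hepatocytes of an adult liver rest outside the cycle and re-enter it after injury or loss of tissue, and macrophages and activated stellate cells of an injured liver can also divide. In whole tissue, a change in the number of cells that express a gene and a change in its RNA per cell cannot be told apart.

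The late and early programmes differ in short promoter motifs. A promoter here is the 250 bases before and 50 after the annotated start of a gene in RefSeq, assembly GRCm38.p6, read on the strand of the gene, and 28 of the 34 genes had at least 1. The motifs searched on both strands were TTTGAA and TTCGAA, forms of the CHR element that MuvB binds; CCAAT, the NF-Y box; TTCCCGC or TTGGCGC or TTCGCGC, forms of the E2F site; and TATAAA, the TATA box. The E2F forms end in bases that can overlap a CCAAT box or each other. A CHR motif was found for 13 of 17 mitosis genes (76.5%) and 2 of 11 replication genes (18.2%), against 19.2% of all 32851 promoters. An E2F motif was found for 3 of 17 mitosis genes (17.6%) and 6 of 11 replication genes (54.5%), against 8.07% of all promoters. CCAAT was found for 15 of 17 mitosis and 8 of 11 replication genes, against 37.4% of all promoters, and TATAAA for none of the 28 genes, against 13.6%. These shares describe the letters only, and a match is neither a measured site nor a cause of any value below.

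**Figure D1:**
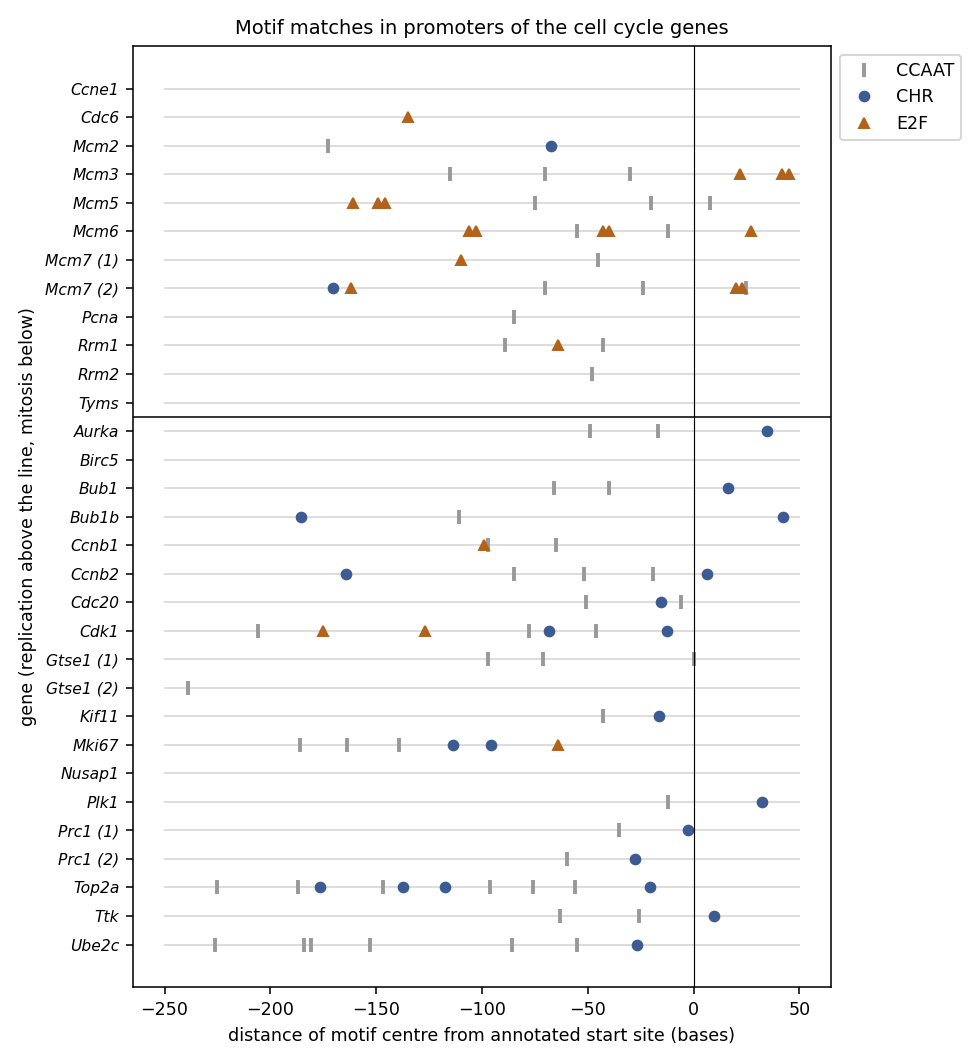
Positions of CCAAT (grey bars), CHR (blue circles) and E2F (orange triangles) motifs in the promoters of replication genes (above the line) and mitosis genes (below it), by distance in bases of the motif centre from the annotated start. CHR marks 13 of the 17 mitosis genes and 2 of the 11 replication genes; a number in brackets tells apart the promoters of a gene with more than 1.

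The promoters of 5 mitosis genes and 2 replication genes are shown as examples with a CHR or an E2F motif, so they are not a sample of either class. The 2 replication genes with a CHR motif, Mcm2 (without E2F) and Mcm7 (with E2F), are not shown, and neither are genes without both motifs. Motif letters are in capitals, and a match on the opposite strand reads as its reverse complement, such as TTCAAA or ATTGG. Mki67 and Cdk1 have both CHR and E2F motifs and are 2 of the 3 mitosis genes with an E2F motif, Ccnb2, Kif11 and Top2a have CHR without E2F, and Mcm6 and Mcm5 have E2F without CHR.
Mki67 (chr7:135716330-135716629, minus strand): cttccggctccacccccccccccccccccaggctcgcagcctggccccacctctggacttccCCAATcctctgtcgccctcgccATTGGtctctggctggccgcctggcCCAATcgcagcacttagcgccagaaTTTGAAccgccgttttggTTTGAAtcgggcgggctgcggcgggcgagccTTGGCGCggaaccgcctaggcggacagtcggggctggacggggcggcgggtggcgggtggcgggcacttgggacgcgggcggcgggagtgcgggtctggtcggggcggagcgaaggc
Ccnb2 (chr9:70421505-70421804, minus strand): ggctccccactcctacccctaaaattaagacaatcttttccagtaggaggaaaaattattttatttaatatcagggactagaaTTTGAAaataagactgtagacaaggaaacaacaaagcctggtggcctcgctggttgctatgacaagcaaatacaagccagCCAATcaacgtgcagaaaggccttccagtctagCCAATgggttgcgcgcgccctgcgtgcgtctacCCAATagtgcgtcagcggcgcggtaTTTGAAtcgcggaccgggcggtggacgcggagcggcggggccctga
Kif11 (chr19:37376132-37376431, plus strand): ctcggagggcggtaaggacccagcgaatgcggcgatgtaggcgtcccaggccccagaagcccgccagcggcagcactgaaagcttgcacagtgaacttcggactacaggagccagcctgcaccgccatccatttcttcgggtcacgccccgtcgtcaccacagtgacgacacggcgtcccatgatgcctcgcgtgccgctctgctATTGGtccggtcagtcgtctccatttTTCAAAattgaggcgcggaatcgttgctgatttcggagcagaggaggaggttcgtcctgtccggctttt
Top2a (chr11:99024140-99024439, minus strand): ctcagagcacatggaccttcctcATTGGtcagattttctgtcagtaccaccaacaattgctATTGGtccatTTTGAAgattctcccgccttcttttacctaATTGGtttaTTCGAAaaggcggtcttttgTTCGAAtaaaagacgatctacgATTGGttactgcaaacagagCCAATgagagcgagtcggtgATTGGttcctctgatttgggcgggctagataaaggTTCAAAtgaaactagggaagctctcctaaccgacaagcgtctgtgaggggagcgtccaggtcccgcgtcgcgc
Cdk1 (chr10:69352863-69353162, minus strand): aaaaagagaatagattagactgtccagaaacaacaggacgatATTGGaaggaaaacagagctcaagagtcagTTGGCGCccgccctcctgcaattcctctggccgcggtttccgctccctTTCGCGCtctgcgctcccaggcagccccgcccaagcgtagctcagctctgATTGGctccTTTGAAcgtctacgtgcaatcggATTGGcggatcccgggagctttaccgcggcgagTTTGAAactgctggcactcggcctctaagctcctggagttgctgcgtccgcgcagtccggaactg
Mcm6 (chr1:128359656-128359955, minus strand): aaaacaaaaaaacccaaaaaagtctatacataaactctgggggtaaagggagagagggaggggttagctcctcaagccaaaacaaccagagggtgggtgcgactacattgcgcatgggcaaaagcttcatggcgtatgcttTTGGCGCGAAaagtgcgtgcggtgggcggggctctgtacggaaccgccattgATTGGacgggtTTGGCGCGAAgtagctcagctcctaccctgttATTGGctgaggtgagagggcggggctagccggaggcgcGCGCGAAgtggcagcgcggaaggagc
Mcm5 (chr8:75109259-75109558, plus strand): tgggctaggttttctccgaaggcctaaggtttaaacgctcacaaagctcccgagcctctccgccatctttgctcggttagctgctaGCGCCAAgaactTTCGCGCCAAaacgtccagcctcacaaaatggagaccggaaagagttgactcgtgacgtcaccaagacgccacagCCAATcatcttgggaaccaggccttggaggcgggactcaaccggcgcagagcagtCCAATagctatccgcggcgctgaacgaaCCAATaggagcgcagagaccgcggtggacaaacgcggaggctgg
In Kif11, a CHR motif lies centred 16.5 bases before the start, and in Top2a, 4 CHR motifs stand among 6 CCAAT boxes. Mcm6 holds 5 E2F matches, of which 4 are 2 overlapping pairs of TTGGCGC and GCGCGAA. No searched motif was found in the windows of Ccne1, Tyms, Nusap1 and Birc5.

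None of the 30 genes passed the test between CCl4 and oil livers (limma adjusted p under 0.05 over all 23332 probe sets, of which 0.63% were called higher and 0.09% lower in CCl4 livers, or 0.781% and 0.114% of genes). At an unadjusted p under 0.05, 5 of the 30 were higher and 0 lower, against 8.23% of genes higher and 4.5% lower. After median centring the members' count was 1 higher and 1 lower, and after quantile normalization 3 higher and 1 lower. The shares of all genes were not computed after either step, so these counts have no matching reference. The 5 genes higher on the values as deposited were Mki67, Nusap1, Kif11, Ccnb2 and, among replication genes, Ccne1. The lower gene was Tyms, both after median centring and after quantile normalization. The mean was above that of oil livers for 28 of 30 genes, whereas this held for 52.5% of all genes. The log2 difference (CCl4 minus oil) had a median of 0.28 over the 19 mitosis genes, from 0.03 to 0.80 and above 0 for all 19, and a median of 0.13 over the 11 replication genes, from -0.16 to 0.43 and above 0 for 9. After quantile normalization 19 of 19 mitosis and 7 of 11 replication genes were above 0, and after median centring 18 of 19 and 8 of 11, Bub1b being the mitosis gene below. For these counts too, the shares of all genes were not computed. The median over all genes, which were not matched to the members in brightness, was 0.00838. Median centring lowered the class medians to 0.217 over mitosis genes and 0.0674 over replication genes. The difference between the classes was not tested. Most of these genes were dim: 21 of 30 did not lie above the median probe set (2.58), where array values compress differences, and no detection calls were used here.

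**Figure D2:**
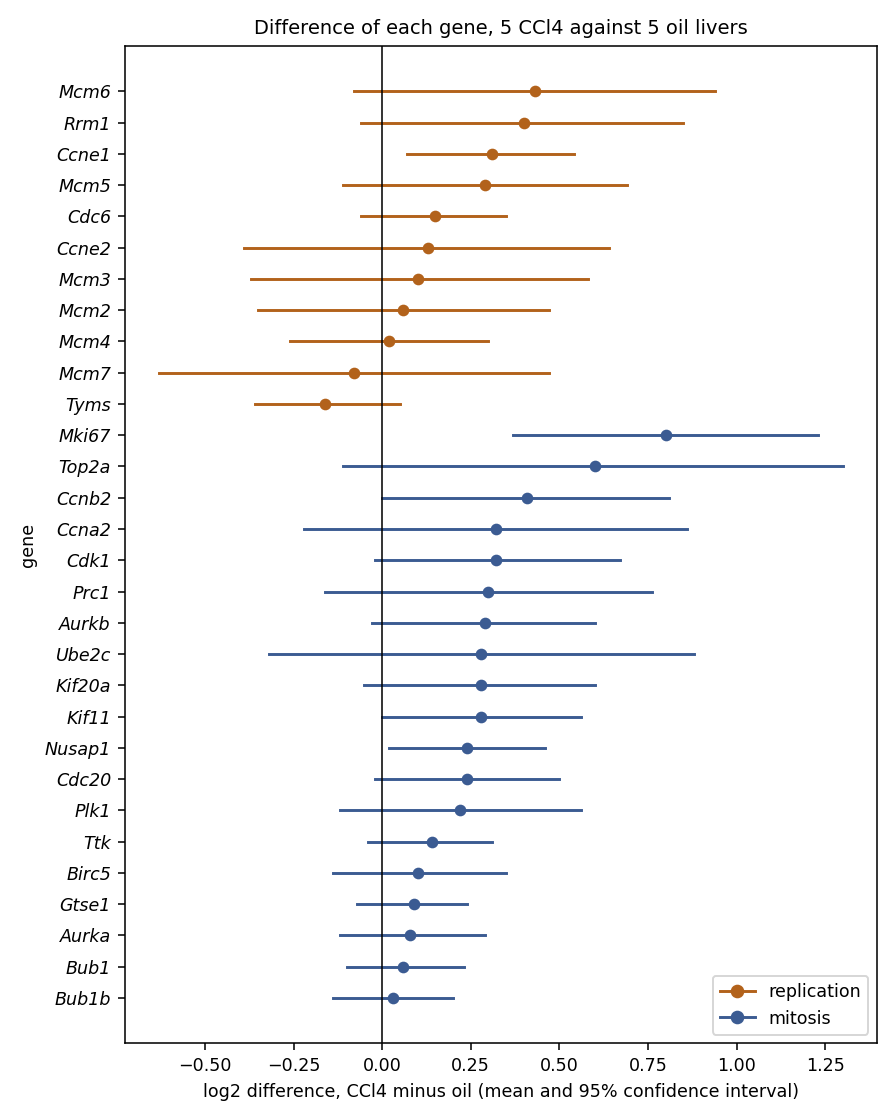
Log2 difference between 5 CCl4 and 5 oil livers (CCl4 minus oil) of each measured gene, replication genes in orange and mitosis genes in blue, with the 95% confidence interval of the limma fit before any adjustment for multiple testing. All 19 mitosis points lie right of 0, and the largest is Mki67 at 0.80.

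The values were unevenly spread over the CCl4 livers. CCl4 liver 2 was the highest of the 10 livers for 22 of 30 genes (73.3%), 15 of 19 mitosis and 7 of 11 replication genes, whereas it was the highest for 14.0% of all genes. It lay above every oil liver for 27 of 30 genes, including all 19 mitosis genes, and for 25.1% of all genes. CCl4 livers 1, 3, 4 and 5 lay above every oil liver for 14, 18, 12 and 4 of the 30 genes, or 46.7%, 60.0%, 40.0% and 13.3%, against 18.6%, 20.0%, 30.5% and 17.8% of all genes. Relative to the oil mean, the mean of the mitosis genes was 0.14, 0.72, 0.29, 0.18 and 0.00 in CCl4 livers 1 to 5, against -0.02, -0.01, -0.01, -0.05 and 0.08 in oil livers 1 to 5. CCl4 liver 5 lay within the range of the oil livers, and the other CCl4 livers lay above it. For the replication genes the same quantity was 0.25, 0.51, 0.03, 0.03 and -0.08 in CCl4 livers 1 to 5, against -0.17, -0.07, 0.08, 0.10 and 0.06 in oil livers 1 to 5. Here only CCl4 livers 1 and 2 lay above the oil livers. Without CCl4 liver 2 the median difference was 0.106 over mitosis genes and 0.0368 over replication genes, with 19 of 19 and 6 of 11 above 0. Some of these mitosis differences were then close to 0, at 0.01 for Bub1b, 0.016 for Bub1, 0.025 for Birc5 and 0.027 for Aurka. The share of all genes above 0 was not computed without that liver, nor was its removal combined with median centring.

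**Figure D3:**
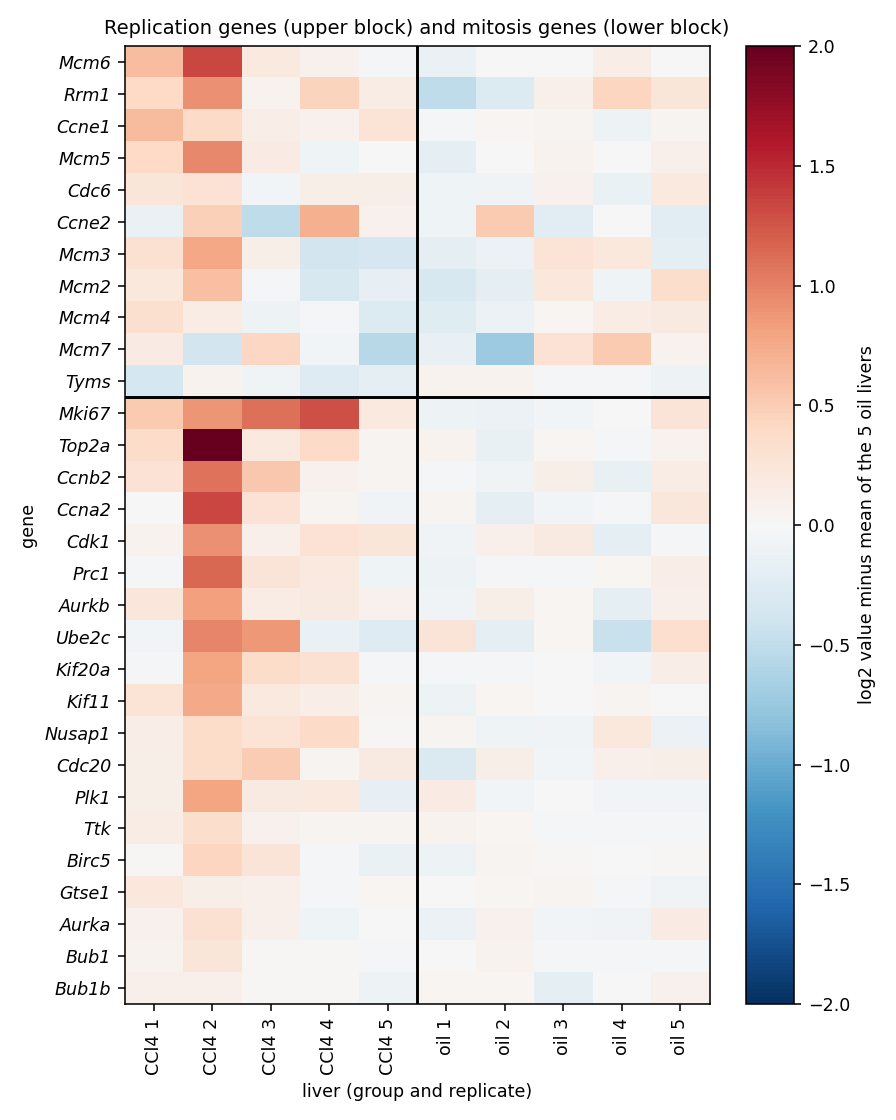
Log2 value of each measured gene in each liver minus the mean of the 5 oil livers, with the 11 replication genes above and the 19 mitosis genes below, CCl4 livers left and oil livers right, red for higher and blue for lower. CCl4 liver 2 is the reddest column, and CCl4 liver 5 resembles the oil columns.

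The spread between livers was wider in the CCl4 group. The SD over 5 livers was larger in CCl4 than in oil livers for 26 of 30 genes (86.7%), 18 of 19 mitosis and 8 of 11 replication genes, against 59.9% of all genes. The median SD was 0.31 in CCl4 and 0.10 in oil livers for mitosis genes, 0.36 and 0.18 for replication genes, and 0.19 and 0.16 for all genes. Without CCl4 liver 2 the SD was larger in CCl4 livers for 21 of 30 genes (70.0%), against 58.3% of all genes. The median SD over the 30 genes was then 0.17 in CCl4 livers, against 0.33 with all 5 CCl4 livers and 0.12 in oil livers.

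Among replication genes, cyclin E1 (Ccne1), which activates CDK2 at the entry to S phase, was 2.56, 2.31, 2.06, 2.01 and 2.20 in CCl4 livers 1 to 5, against 1.88, 1.96, 1.98, 1.82 and 1.97 in oil livers 1 to 5. All 5 CCl4 livers lay above all 5 oil livers, as for Kif11 among mitosis genes, while this held for 3.5% of all genes, and liver 1 was highest. No member lay apart in the other direction, as 1.42% of all genes did. The log2 difference was 0.31 ± 0.11 (SE; 95% interval 0.07 to 0.54), with a limma adjusted p of 0.276. Cyclin E2 (Ccne2), its close relative, was 1.57, 2.18, 1.19, 2.41 and 1.78 in CCl4 livers 1 to 5, against 1.61, 2.23, 1.49, 1.69 and 1.48 in oil livers 1 to 5. The groups overlapped over most of their range, oil liver 2 stood apart from the other oil livers, and the difference was 0.13 ± 0.23 (SE). Cdc6, which loads the MCM helicase on replication origins, ranged from 1.54 to 1.87 in CCl4 livers and from 1.46 to 1.79 in oil livers.

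The MCM genes encode the 6 subunits of the replicative helicase. Mcm6 was 2.54, 3.26, 2.12, 2.01 and 1.89 in CCl4 livers 1 to 5, against 1.79, 1.94, 1.94, 2.06 and 1.92 in oil livers 1 to 5. CCl4 livers 1, 2 and 3 lay above every oil liver, and livers 4 and 5 lay among them, with a difference of 0.43 ± 0.23 (SE) and a limma adjusted p of 0.535. This difference was 0.207 without CCl4 liver 2. Mcm7 was 3.70, 3.17, 3.95, 3.48 and 2.99 in CCl4 livers 1 to 5, against 3.39, 2.82, 3.83, 4.06 and 3.61 in oil livers 1 to 5. Both groups spread widely and overlapped, CCl4 liver 2 was below the mean of the oil livers, and the difference was -0.08 ± 0.25 (SE). The other 4 subunits had differences of 0.29 (Mcm5), 0.10 (Mcm3), 0.06 (Mcm2) and 0.02 (Mcm4), and CCl4 liver 2 was the highest liver for Mcm5, Mcm3 and Mcm2. Although the 6 proteins act as 1 complex, the differences of their genes lay on both sides of 0, and those of Mcm4 (-0.05) and Mcm2 (-0.01) turned negative after quantile normalization.

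The nucleotide-supply genes lay on both sides of 0 as well. Rrm1, the large subunit of ribonucleotide reductase, was 4.51, 5.03, 4.18, 4.55 and 4.26 in CCl4 livers 1 to 5, against 3.61, 3.84, 4.22, 4.54 and 4.35 in oil livers 1 to 5. Liver 2 was the highest, the groups overlapped, and the difference was 0.40 ± 0.21 (SE; limma adjusted p = 0.524), or 0.265 without liver 2. Tyms, thymidylate synthase, was 2.26, 2.68, 2.53, 2.35 and 2.43 in CCl4 livers 1 to 5, against 2.68, 2.67, 2.59, 2.59 and 2.50 in oil livers 1 to 5. Only CCl4 liver 2 reached the level of the highest oil liver, and the difference was -0.16 ± 0.09 (SE; 95% interval -0.36 to 0.05; limma adjusted p = 0.585). Another probe set shared by Tyms and its pseudogene was not used, so cross-hybridisation of the pair was not examined.

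Mki67, which encodes the proliferation antigen Ki-67, a protein that coats mitotic chromosomes, had the smallest p and the largest difference of the 30 genes. It was 2.12, 2.48, 2.70, 2.89 and 1.79 in CCl4 livers 1 to 5, against 1.49, 1.48, 1.55, 1.61 and 1.86 in oil livers 1 to 5. CCl4 livers 1 to 4 lay above every oil liver, and liver 5 lay below oil liver 5. The difference was 0.80 ± 0.19 (SE; 95% interval 0.37 to 1.23), a fold of 1.74, with an unadjusted limma p of 0.0019 and an adjusted p of 0.107. Without CCl4 liver 5, the lowest CCl4 liver for Mki67, it was 0.951 with a limma adjusted p of 0.0240, past the threshold. That removal also raised the calls over all probe sets from 147 to 259 higher and from 21 to 40 lower. Over the 17 alternatives run for Mki67 (it is too dim for the fit on brighter probe sets) the adjusted p ran from 0.0240 to 0.221. Unlike for most mitosis genes, liver 4 and not liver 2 was the highest for Mki67. Liver 4 was also the highest of the 10 livers for 21.8% of all genes. Without it the Mki67 difference was 0.676.

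The cyclins and the kinase of mitotic entry came next. Cdk1, the kinase that drives entry into mitosis, was 2.08, 2.92, 2.11, 2.29 and 2.24 in CCl4 livers 1 to 5, against 1.93, 2.10, 2.18, 1.83 and 1.98 in oil livers 1 to 5. CCl4 liver 2 stood far above the other 4 CCl4 livers, of which livers 1 and 3 lay within the oil range, and the difference was 0.32 ± 0.16 (SE; limma adjusted p = 0.481). Cyclin B2 (Ccnb2), a partner of CDK1, was 3.02, 3.82, 3.27, 2.82 and 2.80 in CCl4 livers 1 to 5, against 2.70, 2.67, 2.85, 2.59 and 2.88 in oil livers 1 to 5. CCl4 livers 1, 2 and 3 lay above the oil livers, with a difference of 0.41 ± 0.18 (SE; limma adjusted p = 0.438). Cyclin A2 (Ccna2), which acts in S phase and G2, was 2.61, 3.95, 2.91, 2.68 and 2.54 in CCl4 livers 1 to 5, against 2.68, 2.43, 2.56, 2.58 and 2.84 in oil livers 1 to 5. Liver 2 stood alone, and only livers 2 and 3 exceeded the oil range. Without CCl4 liver 2 the differences were 0.176 for Cdk1, 0.238 for Ccnb2 and 0.064 for Ccna2.

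Among genes of chromosome structure and segregation, Top2a, the topoisomerase that untangles sister chromatids, was 1.98, 3.60, 1.81, 1.99 and 1.67 in CCl4 livers 1 to 5, against 1.69, 1.46, 1.66, 1.58 and 1.68 in oil livers 1 to 5. The value of CCl4 liver 2 exceeded the mean of the remaining 4 CCl4 livers by 1.74, the largest such gap of the 30 genes. Livers 1, 3 and 4 lay just above the oil range and liver 5 within it, and the difference was 0.60 ± 0.32 (SE; limma adjusted p = 0.537). Aurkb, the kinase of the chromosomal passenger complex that corrects faulty attachments, was 2.78, 3.38, 2.70, 2.73 and 2.64 in CCl4 livers 1 to 5, against 2.49, 2.68, 2.60, 2.36 and 2.66 in oil livers 1 to 5. Liver 2 stood apart, livers 1, 3 and 4 lay slightly above every oil liver and liver 5 within the oil range. The difference was 0.29 ± 0.14 (SE). Birc5 (survivin), its partner in that complex, was 2.05, 2.46, 2.29, 1.99 and 1.89 in CCl4 livers 1 to 5, against 1.93, 2.08, 2.05, 2.03 and 2.06 in oil livers 1 to 5. CCl4 livers 2 and 3 exceeded the oil range, and oil liver 1 stood slightly below the other oil livers. Without CCl4 liver 2 the differences were 0.248 for Top2a (limma adjusted p = 0.428), 0.153 for Aurkb and 0.025 for Birc5.

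Genes of the mitotic spindle and of cell separation followed. Kif11, the motor that pushes spindle poles apart, was 2.06, 2.55, 1.98, 1.92 and 1.85 in CCl4 livers 1 to 5, against 1.69, 1.82, 1.79, 1.84 and 1.80 in oil livers 1 to 5. The groups did not overlap, but the lowest CCl4 and the highest oil value were only 1.85 and 1.84, and the difference was 0.28 ± 0.13 (SE; limma adjusted p = 0.435). Nusap1, a spindle microtubule protein, was 1.71, 1.94, 1.85, 1.97 and 1.61 in CCl4 livers 1 to 5, against 1.64, 1.49, 1.51, 1.79 and 1.47 in oil livers 1 to 5. CCl4 livers 2, 3 and 4 lay above the oil livers, with a difference of 0.24 ± 0.10 (SE; limma adjusted p = 0.395). Prc1, which bundles microtubules of the midzone, was 1.46, 2.63, 1.74, 1.67 and 1.39 in CCl4 livers 1 to 5, against 1.38, 1.44, 1.44, 1.52 and 1.62 in oil livers 1 to 5. Kif20a, a motor needed for cytokinesis, was 1.90, 2.72, 2.30, 2.25 and 1.91 in CCl4 livers 1 to 5, against 1.90, 1.90, 1.93, 1.89 and 2.07 in oil livers 1 to 5. For both, CCl4 livers 2, 3 and 4 exceeded every oil liver, whereas livers 1 and 5 did not. The differences were 0.30 ± 0.21 for Prc1 and 0.28 ± 0.15 for Kif20a (SE). Without CCl4 liver 2 the differences were 0.163 for Kif11, 0.206 for Nusap1, 0.084 for Prc1 and 0.149 for Kif20a.

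The other 8 mitosis genes with values had differences between 0.03 and 0.28, with limma adjusted p between 0.483 and 0.946. Ube2c and Cdc20, which work with the anaphase-promoting complex, were at 0.28 and 0.24, and Plk1 and Aurka, kinases of spindle assembly, at 0.22 and 0.08. The checkpoint genes that hold anaphase until chromosomes are attached had small differences, 0.14 for Ttk, 0.06 for Bub1 and 0.03 for Bub1b, and Gtse1, a microtubule-associated protein of G2 and mitosis, was at 0.09. CCl4 liver 2 was the highest liver for 6 of these 8, and Cdc20 and Gtse1 were highest in CCl4 livers 3 and 1.

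Wider lists of the same processes gave smaller median differences. Of 34 other replication genes, 32 had values, none passed the test, 16 lay above and 16 below 0, and the median difference was 0.00. The nearest to passing were Uhrf1, which carries DNA methylation through replication, at 0.50 (limma adjusted p = 0.258), and Dbf4, the activator of the kinase that fires origins, at 0.34 (limma adjusted p = 0.381). Of 55 other mitosis genes, 47 had values, none passed, 39 lay above and 8 below 0, and the median was 0.13. The list mean relative to oil was 0.42 in CCl4 liver 2 and between 0.02 and 0.09 in the other CCl4 livers, against -0.02 to 0.03 in oil livers. Ect2, which starts the cleavage furrow, was 2.52, 3.05, 3.23, 2.95 and 3.06 in CCl4 livers 1 to 5, against 2.44, 2.35, 2.23, 2.32 and 2.51 in oil livers 1 to 5. Its groups did not overlap, and liver 2 was not the highest, with a difference of 0.59 ± 0.13 (SE; limma adjusted p = 0.0715, from 0.0186 to 0.182 over alternatives). Smc4, a condensin subunit, was at 0.68, Cenpn, a centromere protein, at 0.33, and Hmmr, a spindle protein, at 0.23, with limma adjusted p of 0.42, 0.317 and 0.338.

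**Figure D4:**
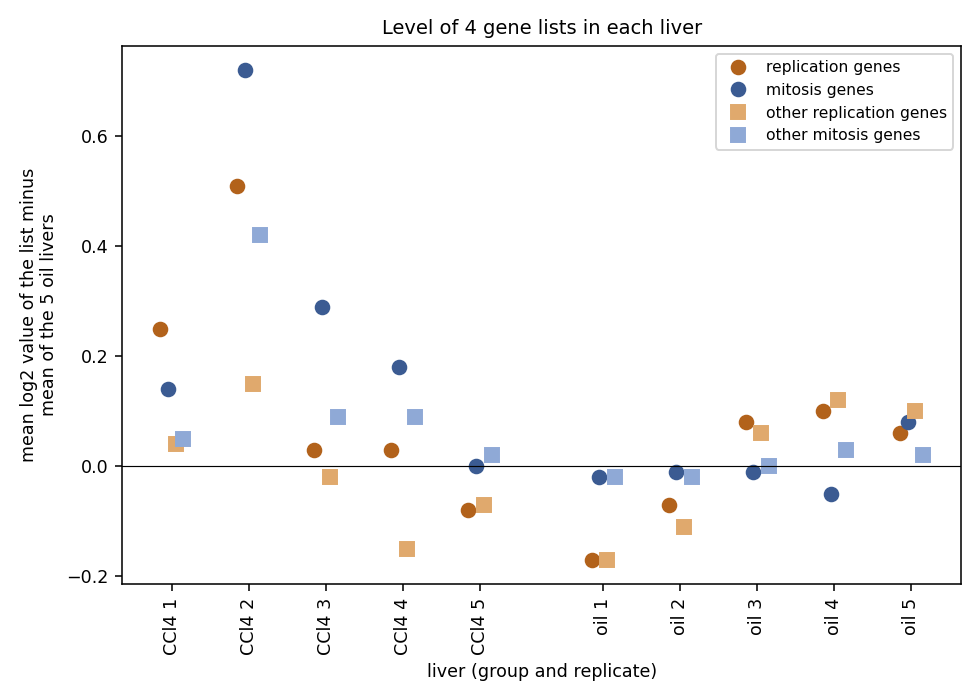
Mean log2 value of each list in each liver, minus its mean in the 5 oil livers, for the replication and mitosis genes (circles) and the wider lists of other replication and other mitosis genes (squares); CCl4 livers stand left and oil livers right. CCl4 liver 2 is highest for all 4 lists, at 0.51, 0.72, 0.15 and 0.42.

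Upstream of these genes, 1 regulator passed the test. Cdkn2c, the inhibitor p18INK4C of the G1 kinases CDK4 and CDK6, was 3.26, 4.48, 3.29, 4.44 and 3.81 in CCl4 livers 1 to 5, against 2.04, 2.05, 1.96, 1.91 and 1.88 in oil livers 1 to 5. It rose by 1.89 ± 0.24 on the log2 scale (SE; 95% interval 1.35 to 2.42), 3.70-fold, with a limma adjusted p of 0.00989. All CCl4 livers lay well above all oil livers, whose values were below the median probe set, and CCl4 livers 2 and 4 were the highest. It stayed past the threshold in 15 of 17 alternatives, the exceptions being the fit with a replicate block (adjusted p = 0.0608) and the test of the study's methods, without limma's shared variance (0.0717). It was the only one of 6 CDK inhibitors with values to pass. Cdkn1a, the p53 target p21, was 3.45, 4.98, 4.66, 7.76 and 6.10 in CCl4 livers 1 to 5, against 3.04, 2.59, 4.14, 4.47 and 4.10 in oil livers 1 to 5. The livers of each group differed widely, CCl4 liver 4 was highest, and the difference of 1.72 ± 0.72 (SE) had a limma adjusted p of 0.391. The INK4 genes Cdkn2b and Cdkn2a, which share a locus, were at -0.31 and -0.15.

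Cyclin D1 (Ccnd1), the growth-factor-responsive partner of CDK4 and CDK6, was 6.62, 6.35, 5.15, 4.76 and 5.39 in CCl4 livers 1 to 5, against 4.18, 4.57, 4.26, 4.20 and 4.03 in oil livers 1 to 5. All CCl4 livers exceeded all oil livers, and livers 1 and 2 were the highest. The difference of 1.41 ± 0.33 (SE) had a limma adjusted p of 0.096, from 0.0507 to 0.233 over alternatives. Myc, a growth-promoting transcription factor placed in the same list of 9 measured G1 genes, was 5.12, 6.83, 3.48, 5.46 and 3.51 in CCl4 livers 1 to 5, against 2.46, 2.99, 3.83, 3.09 and 2.84 in oil livers 1 to 5. Livers 1, 2 and 4 exceeded the oil range, with a difference of 1.84 ± 0.59 (SE; limma adjusted p = 0.231). Ccnd2 and Cdk6, other parts of the G1 kinase, were at -0.23 and -0.21. None of the 15 measured E2F, retinoblastoma and MuvB-MYBL2 factors passed, with a median of 0.02. The genes nearest to passing were E2f5 at 0.29, Lin54 at 0.25, Mybl2, the activating partner of MuvB, at -0.17 and Rbl1 at 0.14. None of 9 measured mitotic exit and checkpoint kinase genes passed either, with a median of 0.05. Wee1, which restrains CDK1, spread from 4.51 to 6.03 in CCl4 and from 3.77 to 6.02 in oil livers, while Fzr1, Chek2 and Chek1 were at 0.28, 0.22 and 0.13.

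**Figure D5:**
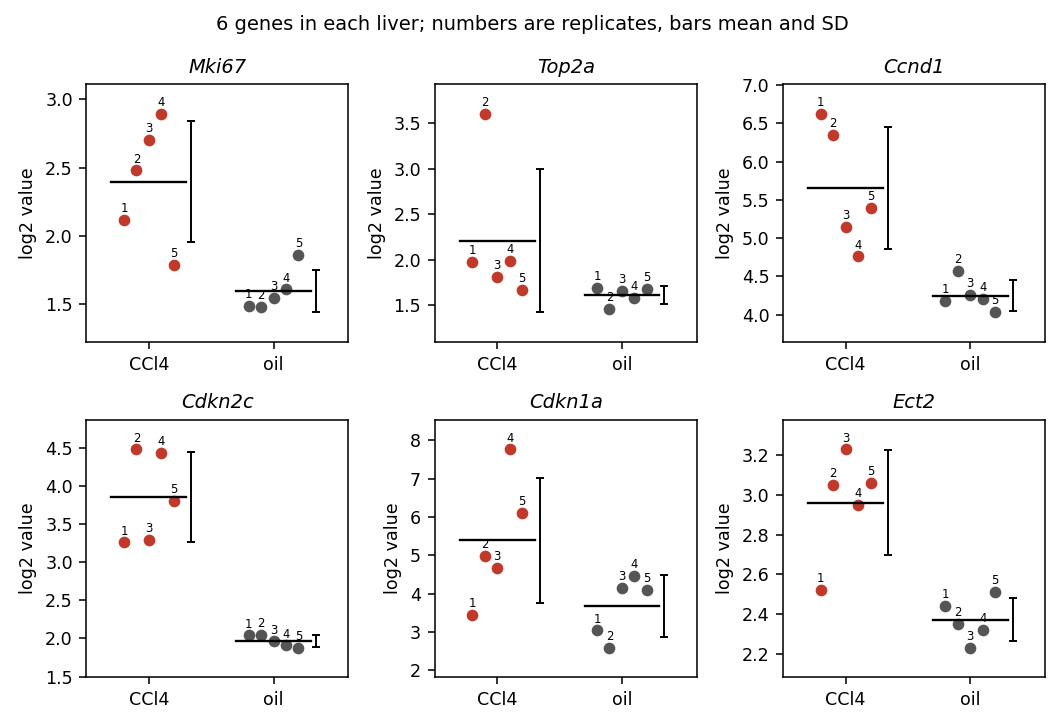
Log2 values of Mki67, Top2a, Ccnd1, Cdkn2c, Cdkn1a and Ect2 in each of 5 CCl4 (red) and 5 oil (grey) livers, numbered by replicate, with the mean (line) and SD (error bar) of each group; each panel has its own axis. Of these, Cdkn2c passed the test, at 3.86 ± 0.60 in CCl4 and 1.97 ± 0.08 in oil livers (SD, n = 5 each).

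Markers of other liver cells also differed between the livers. Macrophage markers (9 of 10 measured) had a list mean of 7.22, 7.67, 6.06, 7.18 and 5.33 in CCl4 livers 1 to 5, against 3.92 to 4.26 in oil livers, and 5 of the 9 passed the test, among them Gpnmb, Cd68 and Lgals3. Stellate cell and matrix markers (10 of 10 measured) had a list mean of 6.57, 7.64, 6.39, 6.50 and 6.58 in CCl4 livers 1 to 5, against 4.59 to 5.34 in oil livers, and 7 of the 10 passed, among them Lum, Vim and Col1a1. Neutrophil and myeloid precursor markers (10 of 10 measured, 0 passed) had a list mean of 2.18, 3.15, 2.27, 2.72 and 2.24 in CCl4 livers 1 to 5, against 1.99 to 2.07 in oil livers. CCl4 liver 2 was the highest for these 3 lists as for the mitosis genes, but the order of the other CCl4 livers differed. The lowest CCl4 mean was in liver 5 for macrophage markers, as for the mitosis genes. It was in liver 3 for stellate cell and matrix markers and in liver 1 for neutrophil and myeloid precursor markers. The part of these cells in the cell cycle values was not tested.

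Endothelial markers (7 of 7 measured) had list means of 6.33 to 7.37 in CCl4 and 6.00 to 6.77 in oil livers, highest in CCl4 liver 4, and bile duct markers (4 of 6) of 2.68 to 3.37 and 2.65 to 2.92. Markers of T and NK cells (8 of 10) had list means of 1.79 to 1.95 in CCl4 and 1.82 to 2.05 in oil livers, those of B and plasma cells (5 of 7) of 3.30 to 3.62 and 3.38 to 3.57, and those of erythroid cells (4 of 10) of 3.78 to 3.95 and 3.94 to 4.06. None of these 5 lists had a gene past the test. Hepatocyte markers (3 of 8), led by albumin (Alb), had list means of 12.53 to 12.71 in CCl4 and 12.49 to 12.78 in oil livers. Those of reference genes (6 of 8) were 7.21 to 7.42 and 7.12 to 7.50. Single reference genes were less even. Rplp0 was only 1.31 to 2.09 in CCl4 and 1.16 to 2.02 in oil livers, near the lower end of the scale. Actb spread from 9.47 (liver 4) to 11.04 in CCl4 livers, against 10.32 to 10.63 in oil livers. Array medians lay between 2.54 and 2.66, pairs of arrays correlated at 0.959 to 0.990 across probe sets, and CCl4 liver 4 had the lowest quality weight in limma (0.459), whereas that of CCl4 liver 2 was 0.940.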

How the data were processed

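Trizol-extracted RNA of each liver was amplified, biotinylated and measured on 1 Affymetrix whole-transcript array per mouse. The authors deposited log2 values of 23332 probe sets on each array. The log2 scale was inferred, since the largest value, 13.4, exceeds the natural log of a 16-bit maximum (11.1) but not its log2 (16). The array is the Mouse Exon 1.0 ST in the series description and probe table but the Mouse Gene ST 1.0 in the methods of the study. Background correction, normalization and summarisation are not given in the sources used here, and precision is limited by the number of arrays. Gene symbols came from the platform's annotation: 14996 probe sets had 1 symbol, 1019 several and 7317 none, and only those with 1 were used.

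CCl4 was compared with oil on the values as deposited with limma 3.58.1 in R 4.3.3 (lmFit and eBayes, 5 arrays per group), and p-values were adjusted by Benjamini-Hochberg across every probe set, with calls made below 0.05. Intervals are 95% limits of that fit. An SD is over 5 livers. The procedure was run on simulated data with independent noise of equal SD in both groups. The members had a wider spread in CCl4 livers and shared a leading liver, so that run does not bear on them. The study's own thresholds were a fold above 1.6 with p under 0.05. Alternatives were a replicate block, quantile normalization, median centring, array quality weights, a trended robust fit, brighter probe sets only, the mean of a gene's probe sets, the test of the study's methods and leaving out each array in turn. Promoters were searched in Python 3.11.15.

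The members, gene lists, motifs and tests were chosen with earlier results of these data known, so none is independent evidence. Values in every liver are given for the 4 replication and 4 mitosis genes with the smallest p, for Mki67, Cdk1 and Ccne1, for members with an array apart from its group and for the 2 most negative differences. Of each other list, up to 4 genes with the smallest p were named. The lists were other replication genes, other mitosis genes, G1 cyclins and kinases with Myc, CDK inhibitors, E2F, RB and MuvB-MYBL2 factors, mitotic exit and checkpoint kinases, reference genes and markers of hepatocytes, macrophages, stellate cells and matrix, endothelium, bile duct, neutrophils, erythroid cells, B and plasma cells and T and NK cells.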

Additional observations from a re-analysis of the deposited data

Results flagged for a closer look

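Groups of 5 livers were examined for the measured members, the means of the replication and of the mitosis members, and named related genes. In 11 of 112 groups, 1 liver lay so far from the others that its gap to the nearest exceeded 0.71 of the range of the group. Chance gives about 1 such group in 20 when a single group is taken alone. All 112 groups were drawn from the same livers, and genes that vary together can flag the same liver repeatedly. The groups are therefore not independent, and whether 11 exceeds chance cannot be judged from that rate. Among members, 5 of the 8 cases were CCl4 liver 2 as the highest: Top2a (gap over range 0.834), Aurkb (0.81), Cdk1 (0.748), Ccna2 (0.739) and Prc1 (0.713), and all 5 are mitosis genes. The other 3 lay in oil livers, where Ccne2 was highest in liver 2 (0.722), Kif20a was highest in liver 5 (0.786) and Birc5 was lowest in liver 1 (0.712). Those values were 2.23 for Ccne2, 2.07 for Kif20a and 1.93 for Birc5, against means of 1.57, 1.91 and 2.06 in the other oil livers. Among related genes, Dbf4 was highest in CCl4 liver 5 (0.741), Cdkn2a in CCl4 liver 1 (0.716) and Ccnd2 in oil liver 2 (0.867).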

How the results depend on the processing

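Of 519 values of single members over 18 alternatives, 502 kept their direction and side of the threshold, 16 turned direction and 1 passed. No member passed under any alternative with all arrays, and 0 or 1 did when 1 array was left out (Mki67, without CCl4 replicate 5). At an unadjusted p under 0.05, 5 members were higher in limma, against 3 with a replicate block, 3 after quantile normalization, 1 after median centring, 0 among brighter probe sets only (9 members tested), 3 by the methods' test and 2 to 7 with 1 array left out, while 1 was lower after quantile normalization, 1 after centring and 0 to 1 with 1 array left out. The share of all genes at that p was computed only for the first of these counts. With 1 array left out, median differences ran from 0.0368 to 0.193 (replication), 0.106 to 0.339 (mitosis) and 0.0955 to 0.302 (all 30), each lowest without CCl4 replicate 2. The replication median was 0.0674 after centring and 0.0606 among brighter probe sets.

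The differences of 6 members turned direction. Mcm4 was -0.054 after quantile normalization, -0.039 after centring and -0.011 with quality weights, Mcm2 was -0.011 after quantile normalization and Bub1b was -0.029 after centring. With 1 array left out, Mcm4 ran from -0.058 to 0.09, Mcm3 from -0.066 to 0.217, Mcm2 from -0.075 to 0.154, Ccne2 from -0.02 to 0.284, Mcm7 from -0.264 to 0.045 and Bub1b from -0.015 to 0.059. The cause was not tested.

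Over all probe sets, 147 were higher and 21 lower, against 30 and 6 with the block, 251 and 47 among brighter probe sets (fewer tested) and 12 and 2 by the methods' test. The lower count was 39 after quantile normalization and 36 after centring. With 1 array left out the counts ran from 30 to 259 higher and 5 to 40 lower. At the study's own thresholds 545 were higher and 155 lower, with 1 member (Mki67), and none after adjustment. The groups share replicate numbers, and the labels do not say whether same-numbered livers were handled together. The deviations of same-numbered arrays over all probe sets correlated at 0.0481, -0.0427, -0.02, 0.162 and 0.026 for replicates 1 to 5. Low correlations over all probe sets cannot show that no handling was shared, so whether the block is apt was not settled. The fits for Cdkn2c, Ccnd1, Ect2, Cdkn1a and Myc were added after seeing the data; Cdkn2c was lost with the block (1.89, limma adjusted p = 0.0608) and in the methods' test (0.0717), and Ect2 passed among brighter probe sets (0.0461) and without CCl4 replicate 1 (0.0186).

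Most members lie near the lower end of the scale, where differences are compressed and no detection call was used, so values of dim genes such as Bub1 and Ttk bound neither presence nor absence. With 5 livers per group and 1 liver that leads most mitosis genes, medians and counts move with that liver.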
